A study of Rattus norvegicus with 18 samples.

Results

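Semaphorins are a family of extracellular axon guidance ligands, and 10 of them were followed in the dorsal root ganglia (DRG) of rats with bilateral corticospinal tract injury. The members were *Sema3a*, *Sema3b*, *Sema3c*, *Sema4c*, *Sema4d*, *Sema4f*, *Sema4g*, *Sema5a*, *Sema6c* and *Sema7a*, found in the count table by gene symbol, in a list drawn up with earlier results of these data known. Each of the 10 had 1 row among the 15075 RefSeq identifiers of the count table, of which 14193 were paired with a symbol, and 10 of 10 passed the filter on low counts in each comparison. The study names 4 of them (*Sema4c*, *Sema4g*, *Sema5a* and *Sema7a*), and these are set beside the other 6. Another 7 semaphorins had a row and were kept apart as a list of their own.

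Poly(A) RNA was sequenced from C6-C8 DRG, the ganglia that hold the cell bodies of sensory neurons of the forelimb, in 18 adult Lister hooded rats. Naïve rats (6) had no operation and no vector. Rats of the bPYX+GFP and bPYX+NT3 groups (6 each) had both corticospinal tracts cut in the medullary pyramids and, a day later, an injection into the forelimb flexors of 1 side of the adeno-associated vector AAV1 encoding green fluorescent protein or human neurotrophin-3 (NT3), driven by the CMV promoter, which is active in many cell types. Ganglia of the treated side were pooled within each rat and were taken 10 weeks after the injury. There was no group with injury and no vector, so that injury and vector cannot be told apart in the comparisons with naïve rats.

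Semaphorins signal through plexins, with neuropilins as co-receptors for most secreted class 3 members. Plexins act on small GTPases and collapsin response mediator proteins and so alter the growth cone's cytoskeleton. In DRG, class 3 semaphorins are known for repelling or guiding sensory axons, while classes 4, 5 and 6 are transmembrane ligands and Sema7a is held in the membrane by a lipid anchor and acts through integrin β1 and plexin C1.

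The promoters of *Sema4c* and *Sema7a* are printed because the study names the aryl hydrocarbon receptor Ahr, a ligand-activated transcription factor, beside these ligands. RefSeq held a promoter window for 5 of the 10 members (*Sema3c*, *Sema4c*, *Sema4f*, *Sema6c* and *Sema7a*), each running from 250 bases before to 50 bases after the start site on GRCr8. The *Sema4c* window is chr9:46297949-46298248 on the minus strand and the *Sema7a* window is chr8:67244068-67244367 on the plus strand. Capitals mark GCGTG, the core of the xenobiotic response element that Ahr binds with its partner Arnt, sought on both strands.
Sema4c: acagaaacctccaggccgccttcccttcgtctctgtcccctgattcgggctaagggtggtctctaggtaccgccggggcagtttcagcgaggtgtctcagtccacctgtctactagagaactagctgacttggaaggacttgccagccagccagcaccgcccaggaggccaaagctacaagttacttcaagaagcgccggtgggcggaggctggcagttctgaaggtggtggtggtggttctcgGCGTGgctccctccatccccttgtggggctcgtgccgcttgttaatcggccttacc
Sema7a: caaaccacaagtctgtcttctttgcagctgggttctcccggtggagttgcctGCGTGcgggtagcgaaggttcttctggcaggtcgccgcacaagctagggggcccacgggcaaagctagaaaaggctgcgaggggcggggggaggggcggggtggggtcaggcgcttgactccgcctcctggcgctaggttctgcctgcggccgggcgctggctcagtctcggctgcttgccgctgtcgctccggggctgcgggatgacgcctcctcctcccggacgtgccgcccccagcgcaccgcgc
Counted from the start site, the match began at -6 in *Sema4c* and at -198 in *Sema7a*. The other 3 windows held none, and 29.7% of the 33469 rat promoter windows held at least 1. The longer TNGCGTG was in 4.89% of all windows and in none of the 5. The *Sema4c* window held 15 CpG dinucleotides, that of *Sema7a* 28 and that of *Sema3c* 1, against a median of 7 over all windows.

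Between 10057787 and 16002410 read-pairs were counted on genes in each rat. Levels are given as normalised read counts, that is, counts scaled by TMM to the mean library of the 18 rats. Levels are compared between rats, not between genes, since no transcript lengths were used. The title recorded with the counts of 17 of the 18 rats names another group than the heading of the count table, which matches the labels' sample numbers. The groups of the heading are used, and the results under the recorded titles are given at the end. Rat 57 (bPYX+GFP) and rat 11 (bPYX+NT3) stood apart from the others. On the first principal component of all genes, which held 48.1% of the variance, they lay at -42.3 and -51.7 and the other 16 rats between -20.9 and 28.1. They also had the lowest shares of read-pairs on no annotated feature, 31.7% and 30.8%, against 32.5% to 34.6% in the others. Results are therefore given with and without these rats. Sensory neuron markers summed to between 165756 and 208629 in each rat, although identifiers of *Calca*, *Snap25* and *Runx3* were at 0 in at least 1 rat. Ganglia hold neurons, Schwann cells, satellite glia and connective tissue, and in such bulk RNA fewer cells of a type and less RNA per cell cannot be told apart.

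Values of each semaphorin in each rat are plotted first.

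**Figure D1:**
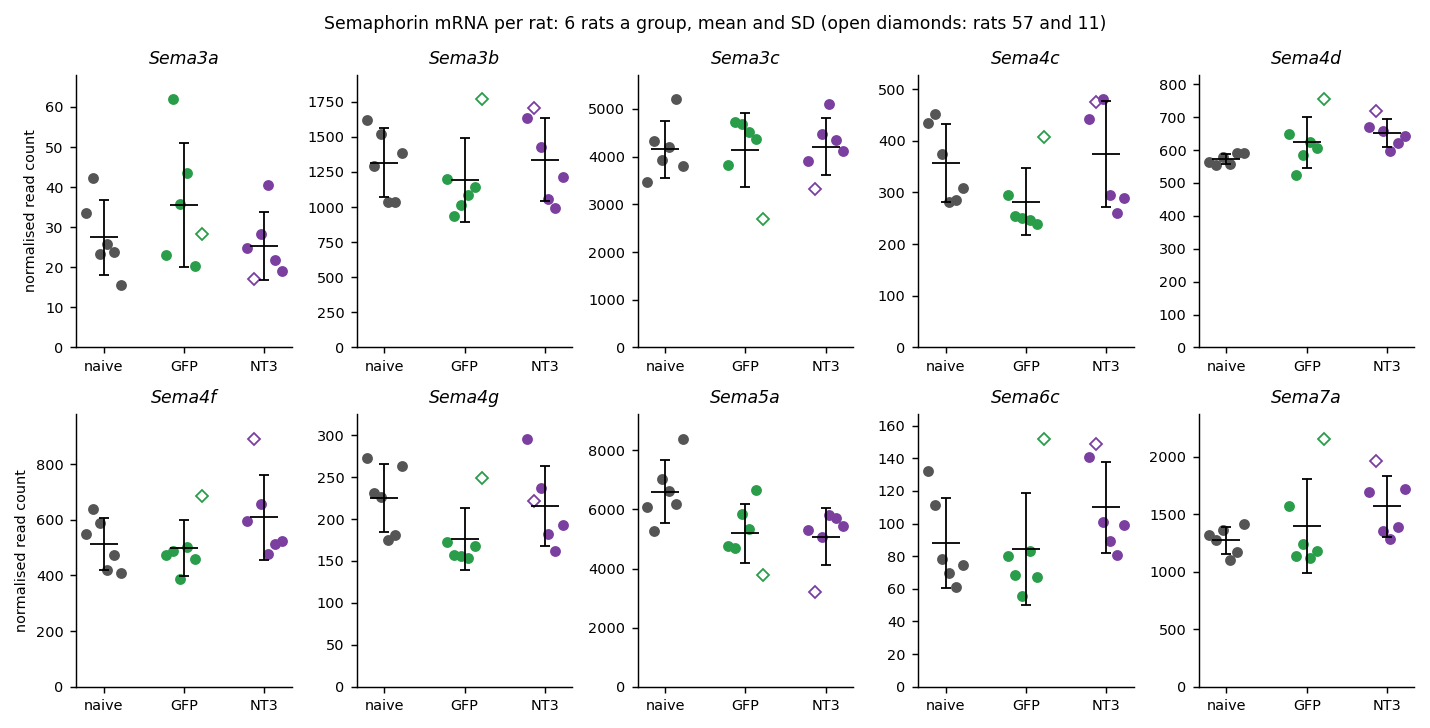
Normalised read count (y axis, linear, from 0) of the 10 semaphorins in each of 18 rats by group (x axis), with the mean and SD of 6 rats as a bar; open diamonds are rats 57 and 11. *Sema5a* had its group mean at 6597 in naïve rats and at 5186 and 5082 in the injured groups, and rat 57 was the highest bPYX+GFP rat for 7 of the 10 semaphorins.

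Changes were called at an unadjusted p under 0.05, the threshold the study used. The test here was edgeR's quasi-likelihood test, which may differ from the edgeR test of the study. In bPYX+GFP over naïve rats, 2 of the 10 semaphorins were lower and 0 were higher, where 3.25% of all 11601 genes were called (2.52% lower and 0.733% higher). In bPYX+NT3 over naïve rats, 2 were higher and 1 was lower, where 6.01% of 11693 genes were called (3.09% higher and 2.92% lower). Comparing the injured groups, 0 of 10 were called, where 1.73% of 11623 genes were (1.08% higher and 0.654% lower). After Benjamini-Hochberg adjustment over all genes, 0 of 10 semaphorins passed in any comparison with edgeR's quasi-likelihood test, its likelihood ratio test or DESeq2. Over all genes the quasi-likelihood test also left 0, whereas the likelihood ratio test left 13 and DESeq2 16 for bPYX+GFP over naïve, with 0 in the other comparisons. The adjusted p of the 10 semaphorins was 0.999802 for each in bPYX+GFP over naïve rats, at least 0.607 in bPYX+NT3 over naïve rats and at least 0.851 between the injured groups. All calls below are thus unadjusted, and the smallest p that the exact permutation test of 6 against 6 rats allows is 0.00216.

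**Figure D2:**
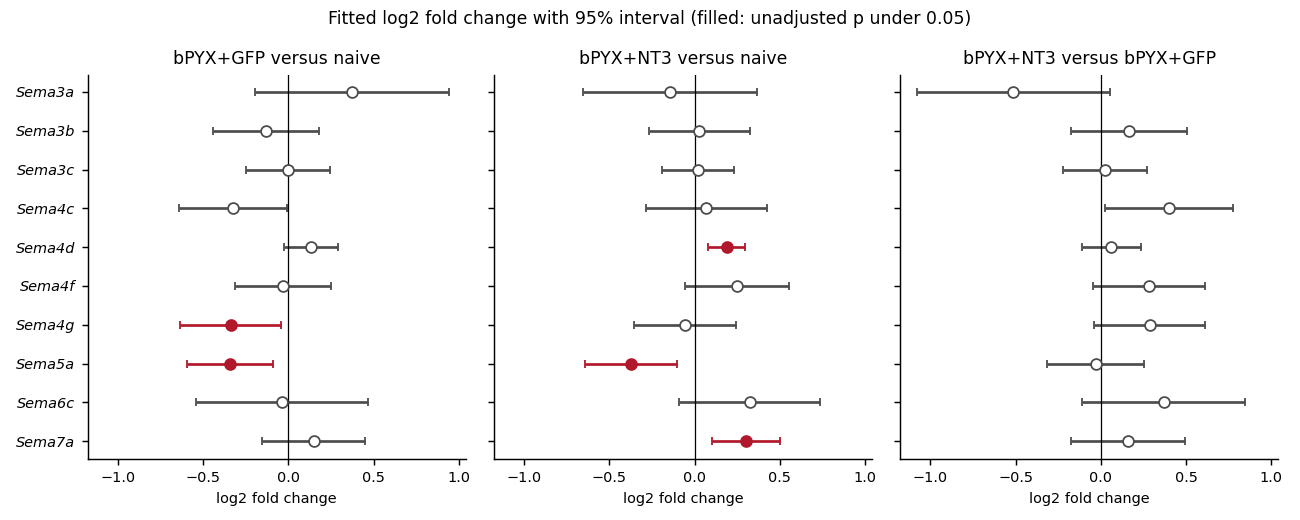
Fitted log2 fold change (x axis, first group over second) of each semaphorin (y axis) with its 95% interval, in the 3 comparisons; filled red points have an unadjusted p under 0.05. *Sema4g* and *Sema5a* are filled on the negative side against naïve rats in bPYX+GFP rats, and *Sema5a* (negative), *Sema4d* and *Sema7a* (positive) in bPYX+NT3 rats.

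Of the secreted class 3 ligands, 0 of 3 were called in any comparison. *Sema3a*, the best-known repellent of sensory axons, had few reads, between 14 and 57 in a rat. Its normalised count ran from 15.6 to 42.3 (median 24.9) in naïve rats, from 20.3 to 61.9 (median 32.1) in bPYX+GFP rats and from 17.2 to 40.6 (median 23.2) in bPYX+NT3 rats. The groups overlapped throughout. Its log2 fold change from bPYX+GFP to bPYX+NT3 rats was -0.51 ± 0.29 (SE; p = 0.0973, exact permutation p = 0.177, 95% interval -1.08 to 0.05). Leaving out 1 rat moved it to between -0.69 and -0.28, the latter without rat 15, and it was called in 2 of 12 such edgeR fits, without rat 23 (-0.69) and without rat 52 (-0.63). Counting error alone was 17.5% to 19.6% of the group mean for *Sema3a*, and the SD among rats was 33.6% to 43.6% of it.

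*Sema3b* and *Sema3c* also act through neuropilins. *Sema3b* ranged from 1033 to 1622 (median 1342) in naïve rats, from 934 to 1767 (median 1116) in bPYX+GFP rats and from 992 to 1707 (median 1320) in bPYX+NT3 rats. The group ranges overlapped, and the highest bPYX+GFP value was that of rat 57. Its log2 fold change was -0.13 ± 0.16 in bPYX+GFP over naïve rats (p = 0.420, exact permutation p = 0.390) and 0.16 ± 0.17 in bPYX+NT3 over bPYX+GFP rats (p = 0.362, exact permutation p = 0.387). Without rat 57 these were -0.29 ± 0.12 (p = 0.0269, exact permutation p = 0.0866) and 0.32 ± 0.14 (p = 0.0381, exact permutation p = 0.113), both past the threshold of the edgeR test and neither past that of the exact test. *Sema3c* had group means of 4156 ± 595 (SD, n = 6) for naïve, 4137 ± 773 for bPYX+GFP and 4208 ± 596 for bPYX+NT3 rats. Its 95% intervals were -0.25 to 0.24, -0.19 to 0.23 and -0.22 to 0.27 on the log2 scale for bPYX+GFP over naïve, bPYX+NT3 over naïve and bPYX+NT3 over bPYX+GFP, and rat 57 was its lowest rat at 2702.

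*Sema4c*, a ligand of plexin B2, was lower in bPYX+GFP rats and near the naïve level in bPYX+NT3 rats by its means. The study lists *Sema4c* as changed at p under 0.05 in edgeR both against naïve rats and between the injured groups. Here neither difference passed the threshold of the quasi-likelihood test with all rats. *Sema4c* ranged from 282 to 453 (median 342) in naïve rats, from 238 to 407 (median 253) in bPYX+GFP rats and from 260 to 480 (median 369) in bPYX+NT3 rats. In bPYX+GFP rats, 5 of 6 values lay below the naïve median and only rat 57, at 407, lay above it. In bPYX+NT3 rats the values fell into a high set (rats 2, 11 and 17, at 443, 475 and 480) and a low set (rats 23, 39 and 40, at 295, 260 and 288). The log2 fold change was -0.32 ± 0.16 in bPYX+GFP over naïve rats (p = 0.0650, exact permutation p = 0.0714) and 0.40 ± 0.19 in bPYX+NT3 over bPYX+GFP rats (p = 0.0566, exact permutation p = 0.0736). Both comparisons share the bPYX+GFP rats. Without rat 57 the values were -0.47 ± 0.13 (p = 0.00285, exact permutation p = 0.0130) and 0.54 ± 0.17 (p = 0.00686, exact permutation p = 0.0216), and without rats 11 and 57 the latter was 0.46 ± 0.16 (p = 0.0135, exact permutation p = 0.0397). Against naïve rats, bPYX+NT3 rats differed by 0.07 ± 0.18 (p = 0.715, exact permutation p = 0.786, 95% interval -0.29 to 0.42).

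*Sema4d*, the ligand of plexin B1 and of the immune receptor CD72, was higher in bPYX+NT3 than in naïve rats, and these groups did not overlap. Its values ran from 554 to 591 (median 572) in naïve rats and from 597 to 718 (median 650) in bPYX+NT3 rats, a log2 fold change of 0.19 ± 0.06 (p = 0.00464, exact permutation p = 0.00216, the smallest the design allows). How many of all genes lacked overlap between these groups was not counted, while 6.01% of all genes tested were called. The *Sema4d* call held whichever of the 12 rats was left out, and its log2 fold change was 0.16 ± 0.05 without rat 11 (p = 0.00925, exact permutation p = 0.00433). The SD of the naïve rats was 2.85% of their mean, under the 4.12% that counting error alone gives, whereas it was 12.3% for bPYX+GFP and 6.41% for bPYX+NT3 rats. bPYX+GFP rats ranged from 523 to 754 (median 615), and 5 of 6 lay above the naïve median. They differed from naïve rats by 0.13 ± 0.08 (p = 0.125, exact permutation p = 0.147) and bPYX+NT3 rats differed from them by 0.06 ± 0.09 (p = 0.509, exact permutation p = 0.411), so that a difference between the injured groups was not shown.

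*Sema4g*, a less studied class 4 ligand, was lower in bPYX+GFP than in naïve rats, and this call was the least stable of those made. It ranged from 175 to 273 (median 228) in naïve rats and from 154 to 249 (median 162) in bPYX+GFP rats, with a log2 fold change of -0.34 ± 0.15 (p = 0.0402, exact permutation p = 0.0390). In bPYX+GFP rats, 5 of 6 values lay between 154.0 and 172.5, below the naïve minimum of 174.7, and rat 57 lay at 249. The call held in only 3 of 12 fits that left out 1 rat, with an edgeR p from 0.00129 (without rat 57) to 0.0895. Without rat 57 the difference was -0.48 ± 0.12 (exact permutation p = 0.00433). Values of bPYX+NT3 rats ran from 162 to 296 (median 207) and differed from bPYX+GFP rats by 0.29 ± 0.17 (p = 0.107, exact permutation p = 0.115), or by 0.42 ± 0.14 (p = 0.00994, exact permutation p = 0.0130) without rat 57. Schwann cell markers were also lower in bPYX+GFP rats: 10 of 10 had a row, none was at 0 in a rat, and their summed level ran from 57504 to 76443 in naïve and from 52176 to 64287 in bPYX+GFP rats (exact permutation p = 0.0238). Their sum stayed low in bPYX+NT3 rats, from 55651 to 64242 (exact permutation p = 0.0238 against naïve and 0.602 against bPYX+GFP rats). *Sema4g* itself differed there from naïve rats by only -0.06 ± 0.15 (p = 0.705, exact permutation p = 0.684). Their part in the result was not tested.

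*Sema4f*, a class 4 ligand, was called in 0 of the comparisons with all rats. Its means were 513 ± 94.1 (SD, n = 6) for naïve, 499 ± 100.1 for bPYX+GFP and 609 ± 152 for bPYX+NT3 rats. Rats 57 and 11 were the highest of their groups at 686 and 891. The injured groups differed by 0.28 ± 0.17 (p = 0.113, exact permutation p = 0.147). The value was 0.40 ± 0.15 without rat 57 (p = 0.0169, exact permutation p = 0.0173), 0.13 ± 0.14 without rat 11 (p = 0.341, exact permutation p = 0.294) and 0.26 ± 0.10 without both (p = 0.0179, exact permutation p = 0.0317).

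*Sema5a*, a transmembrane ligand of plexin B3 with thrombospondin repeats, was lower in both injured groups. Its values ran from 5276 to 8394 (median 6402) in naïve rats, from 3792 to 6659 (median 5061) in bPYX+GFP rats and from 3206 to 5799 (median 5367) in bPYX+NT3 rats. None of the 6 bPYX+NT3 rats and only 1 of the 6 bPYX+GFP rats lay above the naïve median, although the ranges overlapped. The level changed by -21.2% with bPYX+GFP (log2 fold change -0.34 ± 0.13, p = 0.0179, exact permutation p = 0.0346) and by -22.9% with bPYX+NT3 (-0.37 ± 0.14, p = 0.0166, exact permutation p = 0.0152). These comparisons share the naïve rats. Both calls held whichever of the 12 rats was left out of the edgeR fit. Without rat 57, the lowest bPYX+GFP rat, the difference was -0.27 ± 0.11 (p = 0.0330, exact permutation p = 0.0693), and without rat 11, the lowest bPYX+NT3 rat, it was -0.27 ± 0.10 (p = 0.0150, exact permutation p = 0.0303). The injured groups differed from each other by -0.03 ± 0.14 (p = 0.831, exact permutation p = 0.851, 95% interval -0.31 to 0.25).

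Markers of other cells were lower in the same groups as *Sema5a*. The fibroblast markers, 5 of 6 with a row, summed to between 28422 and 38339 (median 34321) in naïve rats, between 26003 and 34020 (median 29492) in bPYX+GFP rats and between 20828 and 36585 (median 26002) in bPYX+NT3 rats (exact permutation p = 0.0346 and 0.0390 against naïve rats). Rat 57 had the lowest of these sums among bPYX+GFP rats and rat 11 among bPYX+NT3 rats, as for *Sema5a*. The sums were not compared without these rats. In each injured group 3 of the 5 fibroblast genes were called lower, where 2.52% (bPYX+GFP) and 2.92% (bPYX+NT3) of all genes tested were. Among them were *Col1a1* and *Col3a1*, fibrillar collagens, at -0.49 and -0.35 in bPYX+GFP rats. The Schwann cell sum ran from 55651 to 64242 in bPYX+NT3 rats (exact permutation p = 0.0238 against naïve rats). Among the Schwann cell genes, *Pmp22*, a peripheral myelin protein, was called lower in both injured groups (-0.31 in each) and *Egr2*, a transcription factor of myelination, in bPYX+GFP rats (-0.30). No marker of either list was at 0 in any rat. The sensory neuron sum did not differ detectably (exact permutation p = 0.102 and 0.478). The part of these cells in the *Sema5a* result was not tested.

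*Sema6c*, a transmembrane class 6 ligand, had 42 to 191 reads in a rat and was called in 0 of the comparisons with all rats. Its means were 87.9 ± 27.7 (SD, n = 6) for naïve, 84.5 ± 34.5 for bPYX+GFP and 109.9 ± 28.0 for bPYX+NT3 rats. All 6 bPYX+NT3 rats lay above the medians of both other groups. Rat 57 lay at 152, far above the next bPYX+GFP rat at 83.3. The injured groups differed by 0.37 ± 0.24 (p = 0.155, exact permutation p = 0.121), by 0.63 ± 0.18 without rat 57 (p = 0.00402, exact permutation p = 0.00866) and by 0.52 ± 0.17 without rats 11 and 57 (p = 0.00803, exact permutation p = 0.0159), bPYX+NT3 rats being higher.

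*Sema7a*, the membrane-anchored member, was higher in bPYX+NT3 than in naïve rats. It ranged from 1105 to 1412 (median 1298) in naïve rats, from 1119 to 2159 (median 1209) in bPYX+GFP rats and from 1287 to 1961 (median 1544) in bPYX+NT3 rats. In bPYX+NT3 rats, 5 of 6 values lay above the naïve median and 3 of 6 above every naïve rat. The level was 23.3% higher (log2 fold change 0.30 ± 0.10, p = 0.0108, exact permutation p = 0.0390), a call that held whichever of the 12 rats was left out of the edgeR fit. Without rat 11, the highest bPYX+NT3 rat, it was 0.23 ± 0.09 (p = 0.0259, exact permutation p = 0.0779). In 1 edgeR fit over the 3 groups it no longer passed, at 0.30 ± 0.15. The highest bPYX+GFP rat was rat 57 at 2159. Without it, bPYX+GFP rats differed from naïve rats by -0.03 ± 0.09 (exact permutation p = 0.740) and bPYX+NT3 rats from bPYX+GFP rats by 0.33 ± 0.12 (p = 0.0170, exact permutation p = 0.0519). With it the values were 0.15 ± 0.15 (exact permutation p = 0.634) and 0.16 ± 0.17 (exact permutation p = 0.318).

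Taking each comparison over the list, the 4 semaphorins that the study names had a median log2 fold change of -0.33 in bPYX+GFP over naïve rats and the other 6 a median of -0.02, with 0.01 over all genes tested. The study selected these 4 on the same rats, so this is not independent of their values. For bPYX+NT3 over bPYX+GFP, the medians were 0.22 and 0.11, with 0.00 over all genes tested. A positive value was found for 8 of the 10 semaphorins and for 51.3% of all genes tested. Many of the 10 levels were correlated over the rats, as given below, so these 8 are not separate results. Of the calls against naïve rats, 2 of 2 in bPYX+GFP rats and 2 of 3 in bPYX+NT3 rats were among the named 4. The exception was *Sema4d*.

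Rat 57 moved many of these values. Without it, 4 of 10 semaphorins were called lower in bPYX+GFP than in naïve rats (*Sema3b*, *Sema4c*, *Sema4g* and *Sema5a*) where 394 of 11520 genes were called lower and 201 higher. Likewise 6 of 10 were called higher in bPYX+NT3 than in bPYX+GFP rats (*Sema3b*, *Sema4c*, *Sema4f*, *Sema4g*, *Sema6c* and *Sema7a*) where 1509 of 11556 genes were called higher and 782 lower. Without rats 11 and 57 the latter count was 5, where 858 of 11477 genes were called higher and 604 lower. The adjusted p of those 6 and 5 semaphorins was 0.251 and 0.385 with edgeR's quasi-likelihood test. Without rat 11 alone, 0 of 10 were called between the injured groups.

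**Figure D3:**
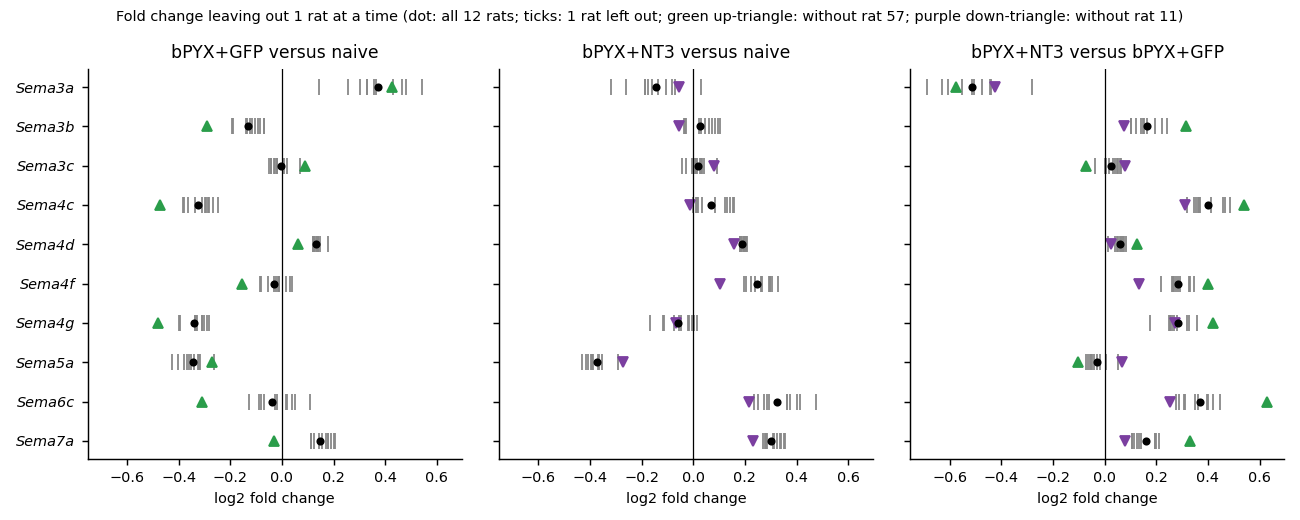
Log2 fold change (x axis) of each semaphorin (y axis) in the 3 comparisons with all 12 rats (black dots), leaving out 1 rat at a time (grey ticks), without rat 57 (green triangles, pointing up) and without rat 11 (purple triangles, pointing down). For *Sema4c* in bPYX+NT3 over bPYX+GFP rats the value went from 0.40 to 0.54 without rat 57 and to 0.31 without rat 11, while *Sema4d* over naïve rats in bPYX+NT3 rats stayed between 0.16 and 0.21.

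Over 18 rats, 25 of the 45 pairs of semaphorins had an adjusted permutation p under 0.05 for Spearman's rho, 17 with a positive and 8 with a negative rho. Each of the 25 had a rho of at least 0.53 in size, which 17.4% of all pairs of the genes tested reached on the positive and 17.2% on the negative side, against 37.8% and 17.8% of the semaphorin pairs. *Sema4c* and *Sema4g* had the strongest positive relation among the named ligands (rho = 0.85, r = 0.85, permutation p = 3e-05 and 6e-05), and r was 0.82 without the 2 rats farthest in *Sema4g*. *Sema3b* and *Sema3c*, both secreted, ran in opposite directions (rho = -0.80, r = -0.81, permutation p = 0.000180 and 3e-05), with r = -0.73 without rats 11 and 57. *Sema5a* and *Sema4g*, both called lower in bPYX+GFP rats, had no detectable relation over the 18 rats (rho = -0.01, r = -0.03, permutation p = 0.966 and 0.900). Their r was -0.17 without the 2 rats farthest in *Sema5a* and 0.25 without rats 11 and 57. It differed between groups, at 0.20 within naïve, -0.72 within bPYX+GFP and -0.27 within bPYX+NT3 rats.

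**Figure D4:**
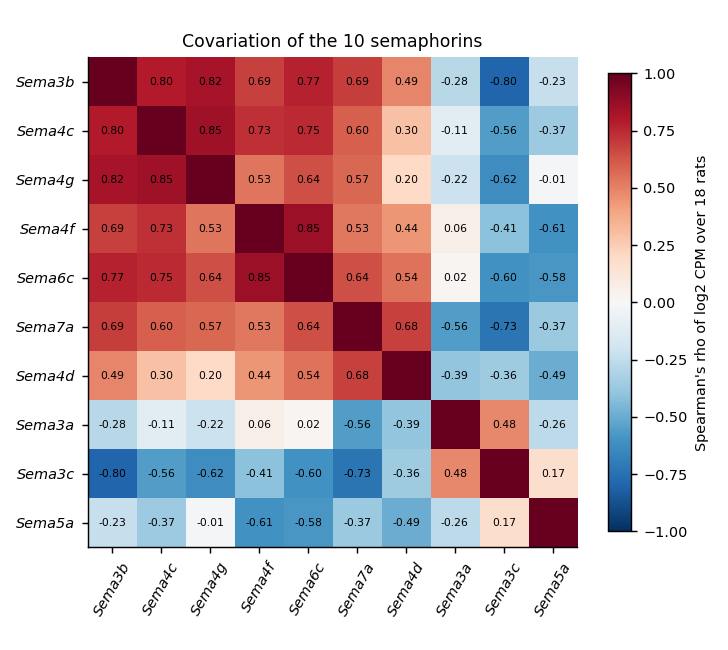
Spearman's rho of log2 CPM between each pair of the 10 semaphorins over 18 rats (colour scale from -1 to 1, values printed in the cells). *Sema3b*, *Sema4c*, *Sema4g*, *Sema4f*, *Sema6c* and *Sema7a* form a block of positive values, from 0.53 to 0.85, and *Sema3c* and *Sema5a* had no positive value with that block.

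Several levels followed the share of read-pairs on no annotated feature, which the study describes as intronic or intergenic reads. Of 10 such relations, that of *Sema4f* was the closest (r = -0.92, rho = -0.92, permutation p = 1e-05 for each, the smallest that 100000 resamples give, adjusted p = 0.0001), at r = -0.84 without rats 11 and 57 and -0.82, -0.94 and -0.96 within naïve, within bPYX+GFP and within bPYX+NT3 rats. *Sema6c* (r = -0.84, rho = -0.84, permutation p = 2e-05 and 4e-05, adjusted p = 0.0001 and 0.0002) and *Sema4c* (r = -0.72, rho = -0.68, permutation p = 0.000220 and 0.00219, adjusted p = 0.000550 and 0.00730) followed it in the same direction, with r = -0.78 and -0.70 without rats 11 and 57. *Sema5a* ran the other way (r = 0.80, rho = 0.63, permutation p = 0.000140 and 0.00631, adjusted p = 0.000467 and 0.0126), with r = 0.47 without these rats. *Sema3b* (r = -0.71), *Sema7a* (r = -0.72) and *Sema3c* (r = 0.71) also had an adjusted permutation p under 0.05 for r and rho. Without rats 11 and 57 their r was -0.55, -0.37 and 0.44. *Sema4d* (r = -0.61) had it for r only, *Sema4g* for rho only and *Sema3a* for neither. Levels followed the first principal component of all genes about as closely. The r with it was -0.92 for *Sema4f*, -0.91 for *Sema6c*, -0.80 for *Sema4c* and 0.78 for *Sema5a*. Relations with the no-feature share were not sought for all genes, so they are not shown to be particular to semaphorins. The no-feature share itself was not detectably different between groups (exact permutation p = 0.861, 0.288 and 0.390 in the order of the comparisons above). When this share was added as a covariate of the edgeR fit, *Sema4c* was called lower in bPYX+GFP than in naïve rats, at -0.37 ± 0.07 (adjusted p = 0.0608), as was *Sema4g* at -0.38 ± 0.11 (adjusted p = 0.303). Calls over all 11601 genes rose with this covariate from 292 to 567 lower and from 85 to 281 higher. *Sema4c* between the injured groups was then at 0.25 ± 0.13 and was not called. *Sema5a*, *Sema4d* and *Sema7a* kept their calls with this covariate, at -0.23 ± 0.08, 0.16 ± 0.05 and 0.22 ± 0.09 in bPYX+NT3 over naïve rats.

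For each semaphorin, the genes most like it over the 18 rats by rho were sought among 11543 genes. *Sema5a* was most like *Fut8* (rho = 0.98), a fucosyltransferase, then *Svip* and *Itm2a*. *Sema4g* was most like *Mvb12b*, *Bace2* and *Erbb3*, the last a neuregulin receptor of Schwann cells. *Sema4c* was most like *S100a16*, *Samd4b* and *Srf*, the last a transcription factor of cytoskeletal genes, and *Sema7a* had *Apba1* and *Parm1* among its 3 most alike genes. *Sema3a* was most like *Epha3*, *Nxpe4* and *Il18*, *Sema3b* like *Pomgnt1*, *Caskin2* and *Ncmap*, and *Sema3c* like *Rfx5*, *Cenpu* and *Hook1*. *Sema4d* was most like *Cactin*, *Cib2* and *Chst15*, *Sema4f* like *Tbc1d20*, *Maged1* and *Pfn1*, and *Sema6c* like *Adcy5*, *Abtb1* and *Fmnl1*. These are the highest of many correlations and are a description of these 18 libraries.

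Calls among the rest of the family and its receptors are given beside those of all genes. Of all genes tested, 3.25%, 6.01% and 1.73% were called in the order of the comparisons above. Of the other 7 semaphorins with a row (*Sema3d*, *Sema3e*, *Sema3g*, *Sema4a*, *Sema4b*, *Sema6b* and *Sema6d*), 0 were called in any comparison. Their median log2 fold changes were 0.03, 0.16 and 0.09 in the order above, against 0.01, 0.00 and 0.00 over all genes tested. Of 11 plexins and neuropilins, 6 had a row and were tested. Of these, 1 was called lower in bPYX+GFP than in naïve rats, where 2.52% of all genes tested were, and 0 in the other comparisons. *Plxnb3*, the plexin that binds Sema5a, was lower in bPYX+GFP than in naïve rats, at 563 ± 80.5 against 677 ± 91.2 (SD; log2 fold change -0.26 ± 0.11, p = 0.0342, exact permutation p = 0.0368). In bPYX+NT3 rats it was at 640 ± 130 (SD), which differed from bPYX+GFP rats by 0.18 ± 0.14 (p = 0.206, exact permutation p = 0.284). *Plxnb2*, the receptor of Sema4c, had means of 453 ± 105, 474 ± 141 and 548 ± 142 in naïve, bPYX+GFP and bPYX+NT3 rats, with no call. Of 9 other partners and Ahr pathway genes, 1 was called higher between the injured groups, where 1.08% of all genes tested were, and 0 in the other comparisons. *Ahr* was higher in bPYX+NT3 than in bPYX+GFP rats, at 385 ± 42.2 against 324 ± 31.6 (log2 fold change 0.25 ± 0.09, p = 0.0171, exact permutation p = 0.0152), and differed from naïve rats (367 ± 49.6) in neither injured group by the threshold (exact permutation p = 0.0996 for bPYX+GFP and 0.485 for bPYX+NT3). *Itgb1*, the integrin subunit used by Sema7a, was not called in any comparison.

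Inside the cell, 24 of 25 genes that carry semaphorin signals were tested, through 25 identifiers. None was called between bPYX+GFP and naïve rats or between the injured groups. Between bPYX+NT3 and naïve rats, 2 were higher and 1 was lower, where 3.09% of all genes tested were called higher and 2.92% lower. The median log2 fold change was 0.14 over the list and 0.00 over all genes tested. *Arhgef11*, an exchange factor that binds class B plexins, was at 1404 ± 155 against 1199 ± 91.7 (0.23 ± 0.08, p = 0.0100, exact permutation p = 0.0216). *Limk1*, a kinase that acts on cofilin, was at 1007 ± 318 against 779 ± 112 (0.37 ± 0.17, p = 0.0462, exact permutation p = 0.108). *Rnd3*, a small GTPase, was lower at 634 ± 64.6 against 712 ± 51.6 (-0.17 ± 0.08, p = 0.0465, exact permutation p = 0.0455).

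Grouping the same rats by the titles recorded with their counts turned the calls. *Sema5a* was then called higher in bPYX+NT3 than in naïve rats, by 0.42 (adjusted p = 0.837 with edgeR's quasi-likelihood test), and 0 semaphorins were called between bPYX+GFP and naïve rats. Every direction given here for *Sema5a*, *Sema4d* and *Sema7a* against naïve rats rests on the heading of the count table and was opposite under the recorded titles. The study's supplement gives *Gfap* at -0.70 in bPYX+GFP over naïve rats and at 1.26 in bPYX+NT3 over bPYX+GFP rats. It gives *Sema4c* at 0.40 in the latter comparison. The groups of the heading gave these same values, whereas *Sema4c* had the other sign there under the recorded titles. The heading thus matches the study's own grouping for these genes.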

How the data were processed

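RNA-seq libraries of pooled cervical DRG from 18 rats were used. Read-pairs of 50 bp were mapped by the authors with TopHat2 on Rnor_6.0, duplicates were taken out with Picard, and HTSeq assigned read-pairs to RefSeq identifiers. The deposited values are these counts, not normalized. Reads on no feature, ambiguous reads and reads on several locations were not counted on genes, so that paralogs that share sequence lose reads. The libraries were stranded, and whether the counting used strand is not given in the sources used here. The counts per rat and the table of all rats were identical in 18 of 18 rats, and 0 columns of the table were left out. Groups follow the rat numbers of the table's heading, whose sample numbers match the labels.

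Each comparison was fitted on its 12 rats by edgeR 4.0.16 under R 4.3.3, with TMM, glmQLFit and glmQLFTest. A gene was kept if over 10 reads were counted in 6 or more rats, and p-values were adjusted by Benjamini-Hochberg. Members and list genes were also compared on log2 CPM (prior count 2) by an exact permutation test, two-sided, and correlations were tested with 100000 resamples, in Python 3.11.15 with numpy 2.4.6, pandas 2.3.3 and scipy 1.17.1. Values after ± are SE for log2 fold changes. Alternatives were the likelihood ratio test, DESeq2 1.42.0, other size factors and filters, 1 fit over 3 groups, robust estimation, the no-feature share as a covariate, the recorded titles and leaving out each rat, which was also done in exact tests for rats 57 and 11. The replicate number as a block and the fit without rats 11 and 57 were chosen after seeing the data, as were these exact tests. The labels do not say that a shared replicate number marks a shared litter or day. The fits were tested on simulated data. Depth was 10057787 to 16002410 read-pairs on genes.

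The members and lists were chosen with earlier results of these data known. The genes named are the 10 members, the list genes with a p under 0.05 and, for each member, the 3 genes with the highest rho, together with receptors of named members and the marker genes beside a result. A few genes that this rule would name are not reported here. Promoter sequences are from RefSeq on GRCr8, another build than the counts. Figures were drawn with matplotlib 3.10.9.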

Additional observations from a re-analysis of the deposited data

Results flagged for a closer look

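Within the 30 groups of 6 rats (10 semaphorins in 3 groups), 5 held a rat far from the others, its gap to the nearest rat being a larger part of the group's range than Dixon's 95% value allows. Chance flags about 1 in 20 such groups. Rat 57 accounted for 4 of them in the bPYX+GFP group, with 1767 for *Sema3b* (next 1199), 407.5 for *Sema4c* (next 295), 249.3 for *Sema4g* (next 172.5) and 152.0 for *Sema6c* (next 83.3). Rat 11 in the bPYX+NT3 group had 3205.7 for *Sema5a*, with the next lowest rat at 5058. The 5 values come from 2 libraries and are not independent. These are also the rats with the lowest no-feature shares.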

How the results depend on the processing

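Of 700 values of single semaphorins under alternatives, 600 kept direction and side of the threshold, 12 lost the threshold, 31 gained it and 57 changed sign. The count of semaphorins called in bPYX+GFP over naïve rats (2) was 1 with library size only (*Sema4g* lost), 3 with the no-feature share in the fit (*Sema4c* gained) and 1 to 4 leaving out 1 rat. That in bPYX+NT3 over naïve rats (3) was 2 in 1 fit over 3 groups (*Sema7a* lost) and 3 to 4 leaving out 1 rat. That between the injured groups (0) was 1 with the likelihood ratio test, DESeq2 or 1 fit over 3 groups (*Sema4c* each time), 1 with the no-feature share in the fit (*Sema3c*, higher), 5 without rats 11 and 57, and 0 to 6 leaving out 1 rat. Under the recorded titles these counts were 0, 1 and 1.

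Sign changes were these. Under the recorded titles, bPYX+GFP over naïve gave 0.048 for *Sema3c*, -0.087 for *Sema4d*, 0.21 for *Sema5a* and -0.16 for *Sema7a*. bPYX+NT3 over naïve gave -0.0064 for *Sema3b*, -0.044 for *Sema3c*, -0.22 for *Sema4c*, -0.049 for *Sema4d*, -0.20 for *Sema4f*, 0.021 for *Sema4g*, 0.42 for *Sema5a*, -0.25 for *Sema6c* and -0.10 for *Sema7a*. bPYX+NT3 over bPYX+GFP gave -0.091 for *Sema3c*, -0.048 for *Sema4c*, -0.066 for *Sema4f*, 0.21 for *Sema5a* and -0.23 for *Sema6c*. With the covariate, *Sema3b* was at -0.11 and *Sema4c* at -0.11 in bPYX+NT3 over naïve, and *Sema4d* at -0.0038 and *Sema5a* at 0.11 between the injured groups. *Sema3c* was at 0.0038 with DESeq2 and 0.0036 with its size factors in bPYX+GFP over naïve, and at -0.013 without rats 11 and 57 between the injured groups. *Sema5a* was at 0.0073 there with library size only.

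Leaving out 1 rat changed signs in 11 further results, none of them called with all rats. In bPYX+GFP over naïve, the values ran from -0.052 to 0.090 for *Sema3c*, -0.15 to 0.041 for *Sema4f*, -0.31 to 0.11 for *Sema6c* and -0.030 to 0.21 for *Sema7a*. In bPYX+NT3 over naïve, they ran from -0.32 to 0.031 for *Sema3a*, -0.055 to 0.11 for *Sema3b*, -0.044 to 0.093 for *Sema3c*, -0.014 to 0.16 for *Sema4c* and -0.17 to 0.016 for *Sema4g*. Between the injured groups, they ran from -0.072 to 0.080 for *Sema3c* and -0.10 to 0.068 for *Sema5a*.

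The labels do not say that replicate numbers pair the rats. The correlation of same-numbered rats exceeded 0.1 in 2 of 6 pairs of bPYX+GFP and naïve rats, in 5 of 6 pairs of bPYX+NT3 and naïve rats (0.303 to 0.552, the other at -0.308) and in 3 of 6 pairs of the injured groups, so that no comparison had it in every pair. With the replicate number as a block, 5 semaphorins were called in bPYX+NT3 over naïve rats (*Sema4f* at 0.24 and *Sema6c* at 0.34 gained), where 2962 of all genes were against 703 without it, and 2 and 0 in the other comparisons. Exact permutation p were on the same side of 0.05 with a prior count of 0.5. Of the 30 genes most like a semaphorin (3 for each), 11 were among the first 3 and 25 among the first 100 by Pearson's r. Levels per kilobase were not run, since no transcript lengths were at hand. The cause of these shifts was not tested. Depth limits *Sema3a* and *Sema6c* most.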

Other observations

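Of 17 other guidance ligands (slits, netrins, ephrins and repulsive guidance molecules), 12 were tested. None was called between bPYX+GFP and naïve rats or between the injured groups. In bPYX+NT3 over naïve rats 2 were called higher, where 3.09% of all genes tested were. *Rgma*, a membrane-anchored repellent that binds neogenin, was at 70.3 ± 16.9 (SD) against 49.7 ± 15.3 normalised counts (log2 fold change 0.49 ± 0.22, p = 0.0403, exact permutation p = 0.0519). *Efna1*, a membrane-anchored ephrin, was at 191 ± 40.8 against 152 ± 24.2 (0.33 ± 0.15, p = 0.0398, exact permutation p = 0.0606). Neither passed the adjustment over all genes (adjusted p = 0.607 for both with edgeR's quasi-likelihood test). Apart from Schwann cells and fibroblasts, the summed level of 1 of 11 marker lists differed from naïve rats by the exact permutation test, that of central glia in bPYX+GFP rats (p = 0.0260). In this list *Gfap* was at 76.6 ± 15.4 against 124 ± 34.9 in naïve rats and 183 ± 130 in bPYX+NT3 rats. The other tested genes of the list did not follow it. *Olig2* was at 41.1, 41.3 and 43.8 in bPYX+GFP, naïve and bPYX+NT3 rats, and *Mog* at 115, 128 and 105. Which cells these reads come from was not tested.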
